A study of Mus musculus with 6 samples.

Results

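Mitochondria carry their own set of thioredoxin and antioxidant proteins, and the nuclear genes for 8 of them were followed on whole-genome expression arrays of interscapular brown adipose tissue (iBAT). They are *Txn2* (thioredoxin-2, TRX2), *Txnrd2* (its reductase, TRXR2), *Prdx3* and *Prdx5* (peroxiredoxins), *Sod2* (manganese superoxide dismutase), *Glrx2* and *Glrx5* (glutaredoxins), and *Nnt* (nicotinamide nucleotide transhydrogenase). Members were found through the RefSeq accession that the array files give for each probe. Of the 8 genes, 7 were named on the array, by 9 probes out of the 35448 tested, with 3 probes for *Glrx2* and 1 for each of the others. No accession on the array matched that of *Nnt* in the annotation used, and *Nnt* is not analysed here.

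The arrays compared iBAT of 3 control and 3 *ob/ob* mice, all male, 16 weeks old by their labels, and on a C57BL/6 background. *ob/ob* mice lack functional leptin in every tissue and are obese, so the comparison is of obese with control animals and not of a change made in brown fat alone. The labels do not say whether the controls were littermates or whether RNA of several animals was pooled, so the p values measure the spread between these 6 samples. Signals are on the log2 scale after quantile normalization, 1 unit being a 2-fold difference, and a fold change is *ob/ob* minus control. Values of single arrays are listed in the order of replicates 1, 2, and 3.

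In this system, SOD2 converts superoxide leaking from the respiratory chain into hydrogen peroxide. PRX3 and PRX5 reduce that peroxide and are themselves restored by TRX2, which TRXR2 in turn reduces with NADPH. NNT is a source of that NADPH in the matrix. GLRX2 works with glutathione on mixed disulfides of proteins, and GLRX5 passes iron-sulfur clusters on to their target proteins. Brown fat is dense in mitochondria and burns fatty acids at a high rate. The level of *Trx2* (*Txn2*) in obese brown fat was a question of the study.

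The arrays did not fall simply into their groups. Over all probes tested, Spearman correlations ranged from 0.488 to 0.967 between arrays of the same group and from 0.417 to 0.944 between arrays of different groups. The median was 0.686 within a group and 0.767 between groups, so arrays of the same group were not more alike by the median. Control 3 and *ob/ob* 3 stood apart from the other arrays of their groups, so values are given with and without them. For some genes they lay nearer the other group. The macrophage marker *Csf1r* was 8.21, 8.01, and 9.82 on the control arrays, against 10.35, 10.34, and 8.70 on the *ob/ob* arrays. For others, such as *Gsr* below, they lay with their own group. Why these arrays differ was not tested, and every fold change over all 6 arrays depends on their labels. No probe of any gene passed an adjusted p under 0.05 (limma, 0% of 35448, lowest adjusted p 0.154), and 540 probes were lower and 705 higher at an unadjusted p under 0.05. The tissue label was checked against *Ucp1*, the uncoupling protein of brown fat, which was well above background on every array, at 13.05, 11.72, and 9.48 log2 units on the control arrays, against 8.93, 9.12, and 10.03 on the *ob/ob* arrays. This check used 1 marker and does not show how pure the samples were. The skeletal muscle marker *Myh4* read higher than *Ucp1* on every control array and on *ob/ob* 3, with values given below.

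All 9 probes of the antioxidant genes were well above background on all 6 arrays. Most of them followed 1 of 2 patterns. The thioredoxin itself and its reductase were highest in control 1 and control 2. The peroxiredoxins, the dismutase, and GLRX5 were instead lowest in control 3 and highest in *ob/ob* 3.

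*Txn2* was 11.43, 11.60, and 9.79 log2 units on the control arrays, against 9.53, 9.37, and 9.62 on the *ob/ob* arrays. Every *ob/ob* array lay below every control array, but control 3 lay only just above them and far below the other controls. The scanner signals behind these values were 5720, 4393, and 451 on the control arrays, against 618, 590, and 830 on the *ob/ob* arrays, so that control 3 was the dimmest array before normalization. The mean was 10.94 ± 1.001 (SD, n = 3) in control and 9.51 ± 0.13 (SD, n = 3) in *ob/ob* iBAT. The log2 fold change was −1.43 (95% interval −2.75 to −0.12), or 2.70-fold lower. An exact permutation test of these 6 values gave a two-sided p of 0.10, and a design with 3 arrays a side can give no lower one. The limma p of *Txn2* was 0.0372 unadjusted and 1.0 adjusted over all probes.

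*Txn2* was the 1 probe of the 9 that was lower at an unadjusted p under 0.05, where 1.52% of all probes tested were, and the 1 probe of the 9 whose groups did not overlap, where 4.19% of all probes tested lay lower on every *ob/ob* array. None of the 9 was higher by either measure, against 1.99% and 3.74% of all probes. The study examined *Trx2*, *Trxr2* (*Txnrd2*), and *Prx3* (*Prdx3*) on these same arrays, so the separation of *Txn2* is a description of them and no independent evidence. The study also measured *Trx2* mRNA and protein in obese brown fat by other methods, which are not examined here. The unadjusted call of *Txn2* was lost when control 1, control 2, or any of the *ob/ob* arrays was left out, with limma p values from 0.0591 to 0.129. It held without control 3, with a log2 fold change of −2.01 (limma, unadjusted p 0.00179, adjusted p 0.302).

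*Txnrd2* was 10.66, 10.50, and 7.21 log2 units on the control arrays, against 6.69, 6.60, and 8.77 on the *ob/ob* arrays. The groups overlapped, because *ob/ob* 3 lay above control 3. Control 1 and control 2 lay above all other arrays, as for *Txn2*, whereas *ob/ob* 3 stood higher for the reductase than for the thioredoxin. The mean was 9.45 ± 1.95 (SD, n = 3) in control and 7.35 ± 1.23 (SD, n = 3) in *ob/ob* iBAT. The log2 fold change was −2.10 (95% interval −4.75 to 0.54). That was the largest difference among the 9 probes, and it was within the spread between replicates (limma, unadjusted p = 0.100, adjusted p = 1.0). Without control 3 it was −3.23 (limma, unadjusted p = 0.00643, adjusted p = 0.356).

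Without control 3 and *ob/ob* 3, the log2 fold change was −2.07 for *Txn2* (limma, adjusted p = 2.14e-04) and −3.93 for *Txnrd2* (limma, adjusted p = 1.73e-05), from 2 arrays against 2. In that fit 16259 of the 35448 probes passed the adjusted threshold, so being called there does not set these genes apart from the rest of the array.

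**Figure D1:**
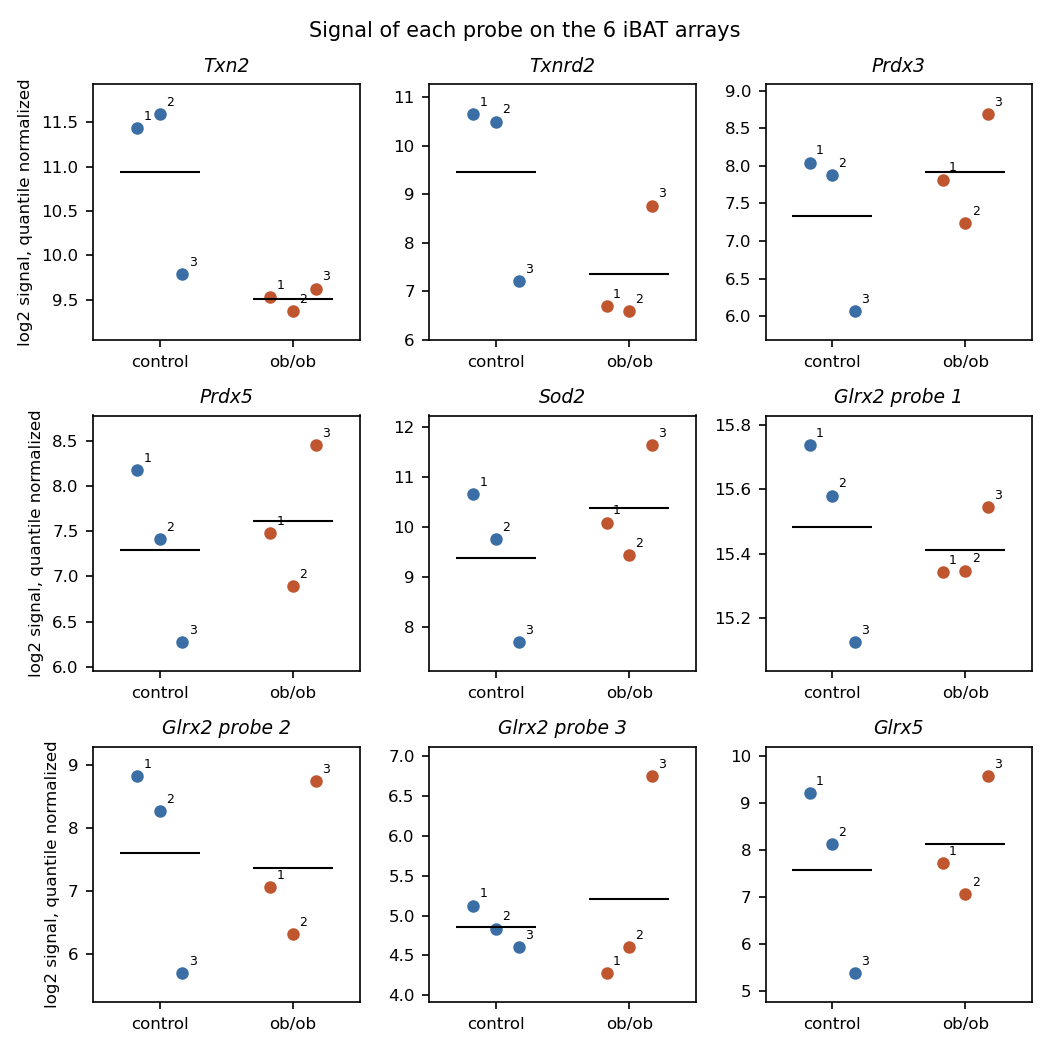
Log2 signal after quantile normalization (vertical axis) of each of the 9 probes in control and *ob/ob* iBAT, with 1 point per array numbered by replicate and a line at the mean of 3 arrays. *Txn2* is the 1 probe whose groups do not overlap, and control 3 is the lowest array for *Prdx3*, *Prdx5*, *Sod2*, and *Glrx5*.

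The peroxiredoxins, which draw their electrons from TRX2, did not share its pattern. *Prdx3* was 8.04, 7.87, and 6.07 log2 units on the control arrays, against 7.81, 7.23, and 8.69 on the *ob/ob* arrays. Control 3 was the lowest array and *ob/ob* 3 the highest, and the remaining 4 arrays lay between 7.23 and 8.04, with both of those controls above both of those *ob/ob* arrays. For *Prdx3* the log2 fold change was 0.58 (95% interval −1.03 to 2.20), within the spread between replicates (limma, unadjusted p = 0.415). The study described a downtrend of this gene on the same arrays, whereas the mean here was higher in *ob/ob* iBAT. The *Prdx3* probe is printed in up to 10 spots on each array, and the SD over these spots was 0.057 to 0.102 log2 units. The differences between arrays were far larger than that between spots.

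*Prdx5*, a peroxiredoxin found in mitochondria and also in peroxisomes and the cytosol, was 8.17, 7.41, and 6.28 log2 units on the control arrays, against 7.48, 6.90, and 8.45 on the *ob/ob* arrays. The order of the arrays was nearly that of *Prdx3*, with *ob/ob* 3 highest and control 3 lowest. Its log2 fold change was 0.32 (95% interval −1.21 to 1.85, limma, unadjusted p = 0.632).

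*Sod2* was 10.65, 9.76, and 7.70 log2 units on the control arrays, against 10.08, 9.43, and 11.64 on the *ob/ob* arrays. Again control 3 was lowest, *ob/ob* 3 highest, and the other arrays of both groups intermingled. The log2 fold change of 1.02 (95% interval −1.19 to 3.23, limma, unadjusted p = 0.306) was the largest positive value among the 9 probes. Without both control 3 and *ob/ob* 3 it was −0.44, so its sign rested on those arrays.

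*Glrx5* was 9.22, 8.13, and 5.39 log2 units on the control arrays, against 7.73, 7.08, and 9.58 on the *ob/ob* arrays. The groups overlapped over most of their range, which was 3.83 log2 units in the controls alone. Its log2 fold change was 0.55 (95% interval −2.16 to 3.26, limma, unadjusted p = 0.641), and it was −0.55 without control 3 and −0.18 without *ob/ob* 3.

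The 3 probes of *Glrx2* did not move alike. The brightest varied little between arrays after quantile normalization, from 15.13 to 15.74 log2 units, although its scanner signals ran from 14781 in *ob/ob* 3 to 66270 in control 1. Its log2 fold change was −0.07 (95% interval −0.86 to 0.72). This probe was not saturated by the scanner's own flag. The second probe, at signals of 38.7 to 844, was 8.83, 8.27, and 5.70 on the control arrays, against 7.06, 6.31, and 8.75 on the *ob/ob* arrays. It was lowest in control 3, as the peroxiredoxins were, and its log2 fold change was −0.23 (95% interval −2.64 to 2.19). The dimmest probe lay between 4.28 and 5.12 on 5 arrays and at 6.75 in *ob/ob* 3, with a log2 fold change of 0.36 (95% interval −1.31 to 2.03). All 3 carry the same transcript accession, and which of them follows the *Glrx2* mRNA best was not tested.

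**Figure D2:**
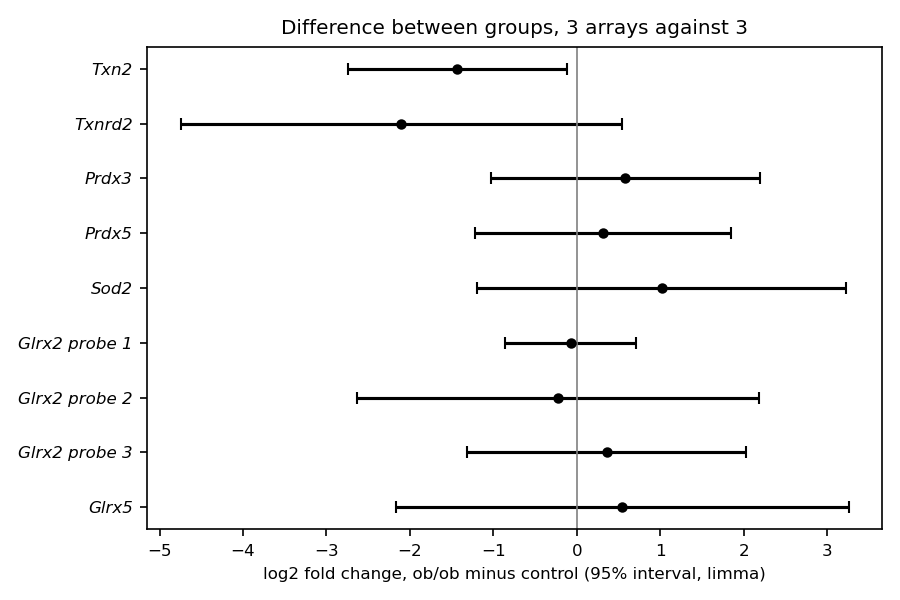
Log2 fold change of each probe, *ob/ob* minus control (horizontal axis), with its 95% interval from limma over 3 arrays against 3. The interval of *Txn2*, from −2.75 to −0.12, is the 1 of 9 that does not include 0.

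The likeness of 2 genes was measured as the root mean square difference of their log2 values over the 6 arrays, after the mean of each gene was subtracted. The closest pair among the 7 genes, each by its brightest probe, was *Prdx3* and *Prdx5*, with a difference of 0.25 log2 units, followed by *Sod2* and *Glrx5* at 0.37 and *Prdx3* and *Sod2* at 0.44. *Txn2* and *Txnrd2* differed by 0.92, and *Txn2* and *Prdx3* by 1.07. *Txnrd2* and *Sod2* were the least alike, at 1.61. Values of all genes on an array share its RNA and its normalization, so these are descriptions of 6 arrays.

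Outside the 8 genes, those most like *Txn2* by this measure were *Hdac6* (0.097 log2 units), *Dgcr6* (0.108), *Tmub1* (0.112), *H2-T3* (0.123), and *Tmem79* (0.126), out of 15877 genes detected on every array. *Hdac6*, which encodes a cytoplasmic deacetylase, was 9.11, 9.19, and 7.55 on the control arrays, against 7.20, 7.25, and 7.45 on the *ob/ob* arrays. Like *Txn2*, it was high in control 1 and control 2 and low on the other 4 arrays.

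A log2 difference between a probe and *Txn2* on the same array shows whether both moved equally. For *Prdx3* minus *Txn2* this was −3.39, −3.72, and −3.72 log2 units on the control arrays, against −1.71, −2.14, and −0.94 on the *ob/ob* arrays. The groups did not overlap, and the 3 controls, which differed widely in either gene alone, lay close together. The group means of this difference were −3.61 ± 0.19 (SD, n = 3) and −1.60 ± 0.61 (SD, n = 3), a shift of 2.01 log2 units toward the peroxiredoxin. The shift was 1.75 for *Prdx5*, 2.45 for *Sod2*, and 1.36 for the brightest *Glrx2* probe, all without overlap between groups. *Glrx5*, with a shift of 1.98, and the other *Glrx2* probes overlapped. For *Txnrd2* the shift was −0.67, with overlap. Thus 4 of the 8 other probes were higher relative to *Txn2* on every *ob/ob* array, as were 24.4% of all probes tested, since the low *Txn2* values of the *ob/ob* arrays enter each difference. This measure was chosen after the values were seen and was not tested.

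Because the antioxidant genes serve the mitochondrion, they were also set beside general mitochondrial genes. A list of 10 mitochondrial content genes holds genes of the outer membrane, protein import, the tricarboxylic acid cycle, and the respiratory chain, such as *Vdac1*, *Tomm20*, *Cs*, and *Sdha*, and 9 of them were measured. Their median was 11.32, 10.73, and 8.05 log2 units on the control arrays, against 9.51, 9.27, and 12.19 on the *ob/ob* arrays. The order of the arrays was that of *Prdx3* and *Glrx5*, with control 3 lowest and *ob/ob* 3 highest. Of the 9 genes, 3 were lower in *ob/ob* iBAT, where 57.2% of the 19011 genes tested were, and none had an unadjusted p under 0.05. Their median log2 fold change was 0.41, against −0.09 over all genes tested. In bulk tissue, fewer cells of a type and less RNA per cell cannot be told apart.

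Relative to that median on the same array, *Txnrd2* was −0.67, −0.24, and −0.84 on the control arrays, against −2.82, −2.68, and −3.43 on the *ob/ob* arrays. The groups, which had overlapped in the signal itself, lay far apart, with the controls close together. The log2 fold change of this relative value was −2.39 (95% interval −4.40 to −0.38, limma, unadjusted p = 0.0258, adjusted p = 1.0), where 0.491% of all probes were lower at an unadjusted p under 0.05. *Txn2* relative to the same median was 0.11, 0.86, and 1.73 on the control arrays, against 0.02, 0.10, and −2.57 on the *ob/ob* arrays. Its groups were separate, but by 0.0088 log2 units between control 1 and *ob/ob* 2, and the fold change was −1.72 (95% interval −4.32 to 0.88, limma, unadjusted p = 0.164). Both members of the pair were thus lower on every *ob/ob* array by this measure, as were 4.92% of all probes. None of the 9 probes was higher on every *ob/ob* array, against 0.649% of all probes, or higher at an unadjusted p under 0.05, against 0.0197%.

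The other probes showed no such separation relative to the mitochondrial median. *Prdx3* was −3.28, −2.86, and −1.98 on the control arrays, against −1.69, −2.04, and −3.51 on the *ob/ob* arrays, and its shift was 0.30. *Prdx5*, *Sod2*, *Glrx5*, and the 3 probes of *Glrx2* had shifts from −0.51 to 0.73, all with overlapping groups. The relative values were computed after the signals had been seen, and the median over all probes then became −0.36.

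**Figure D3:**
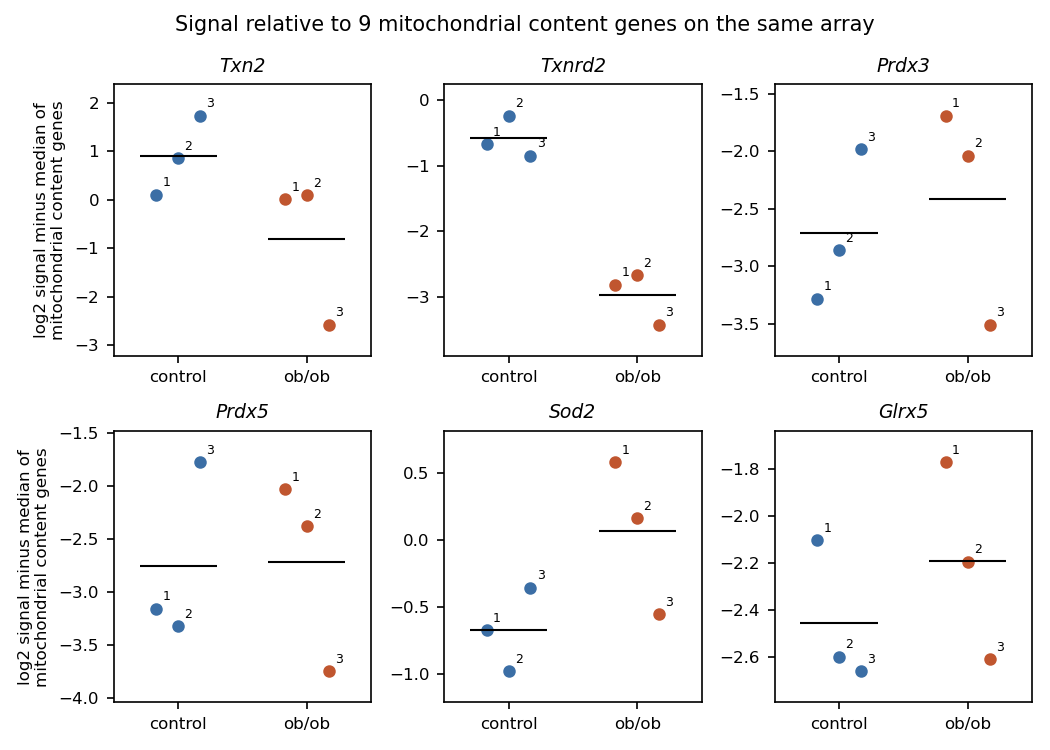
Log2 signal of 6 genes minus the median of 9 mitochondrial content genes on the same array (vertical axis), with 1 point per array numbered by replicate and a line at each group's mean. *Txnrd2* lies between −0.84 and −0.24 in control and between −3.43 and −2.68 in *ob/ob* iBAT, whereas the groups overlap for *Prdx3*, *Prdx5*, *Sod2*, and *Glrx5*.

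Markers of cell types were set beside these patterns, and some lists followed one of them while others did not. The median of the 7 brown adipocyte markers was 10.06, 10.43, and 8.93 log2 units on the control arrays, against 7.97, 7.90, and 7.58 on the *ob/ob* arrays. All 7 were lower in mean in *ob/ob* iBAT, and 3 had an unadjusted p under 0.05, with none past the adjusted threshold (limma). Among all genes tested, 57.2% were lower in mean and 1.69% were lower at that unadjusted threshold. The medians of the brown adipocyte markers, like *Txn2*, were lower on every *ob/ob* array than on any control array. Of the single markers, 3 were so (*Ppargc1a*, *Elovl3*, and *Zic1*, the same 3 with an unadjusted p under 0.05), as were 4.19% of all probes tested. *Elovl3* was detected on 3 of the 6 arrays, the fewest that allowed a test. It was 9.20, 9.35, and 5.48 on the control arrays, against 3.30, 3.92, and 3.29 on the *ob/ob* arrays. It may thus have been tested only through its control values, and its place in these counts is no support. For *Ucp1*, *Cidea*, *Cox7a1*, and *Dio2* the groups overlapped. The median of 3 endothelial markers was 11.51, 11.64, and 8.28 on the control arrays, against 6.55, 5.99, and 9.87 on the *ob/ob* arrays, high in control 1 and control 2, intermediate in control 3 and *ob/ob* 3, and lowest in *ob/ob* 1 and *ob/ob* 2, as for *Txnrd2*. That order is of *Cdh5* and *Kdr*. The third marker, *Pecam1*, ran the other way, at 10.9985, 11.19, and 12.49 on the control arrays, against 12.44, 12.58, and 9.80 on the *ob/ob* arrays. The 5 skeletal muscle markers had medians of 9.54, 9.64, and 7.56 on the control arrays, against 6.44, 6.76, and 10.82 on the *ob/ob* arrays. Within that list *Mylpf* was higher in *ob/ob* iBAT (limma, log2 fold change 1.19, unadjusted p = 0.0341, adjusted p = 1.0), and the other 4 genes had negative log2 fold changes with no unadjusted p under 0.05. *Mylpf* was dim, at 3.68 to 5.59, and detected on 5 arrays. *Myh4* was 14.44, 14.96, and 11.16 on the control arrays, against 6.97, 6.96, and 14.25 on the *ob/ob* arrays. It was highest in control 1 and control 2, as *Txnrd2* was, whereas *Acta1*, *Ckm*, and *Tnnt3* were highest in *ob/ob* 3. The 4 macrophage markers measured had medians of 8.03, 8.23, and 9.30 on the control arrays, against 9.37, 9.48, and 8.06 on the *ob/ob* arrays, opposite to both patterns. These medians are set by *Adgre1* and *Csf1r*, and the other markers differed. *Itgam* was highest in control 1 and control 2, as *Txn2* was, at 12.51, 13.82, and 11.43 on the control arrays, against 11.67, 11.54, and 10.25 on the *ob/ob* arrays. *Lyz2* was highest in *ob/ob* 3, at 6.99. The 4 markers common to all adipocytes had medians of 10.53, 10.26, and 8.18 on the control arrays, against 8.95, 8.56, and 11.39 on the *ob/ob* arrays, with control 3 lowest and *ob/ob* 3 highest, as for *Prdx3*. *Adipoq* and *Pparg* had these extremes, and *Fabp4* was equally high in control 1 and *ob/ob* 3. *Plin1* differed, at 9.27, 8.76, and 7.73 on the control arrays, against 7.39, 7.44, and 8.70 on the *ob/ob* arrays. Neither pattern was seen in the medians of the 5 white adipocyte markers (5.99, 5.96, and 6.25 in control, 6.68, 6.02, and 7.60 in *ob/ob* iBAT) or of the 4 lymphocyte markers (6.00, 6.33, and 6.66 in control, 6.56, 6.47, and 6.59 in *ob/ob* iBAT). Among the white adipocyte markers *Retn* was lower (limma, log2 fold change −1.98, unadjusted p = 0.0385, adjusted p = 1.0). *Lep* went the other way (limma, log2 fold change 2.07, unadjusted p = 0.0641). It was higher on every *ob/ob* array than on any control array, as were 3.74% of all probes tested. Of these 5 markers, 3 were lower in mean in *ob/ob* iBAT. The 3 erythrocyte markers had medians of 7.10, 5.81, and 5.26 on the control arrays, against 5.06, 4.81, and 7.51 on the *ob/ob* arrays. The part of cell composition in the differences of *Txn2*, *Txnrd2*, and the peroxiredoxins was not tested.

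**Figure D4:**
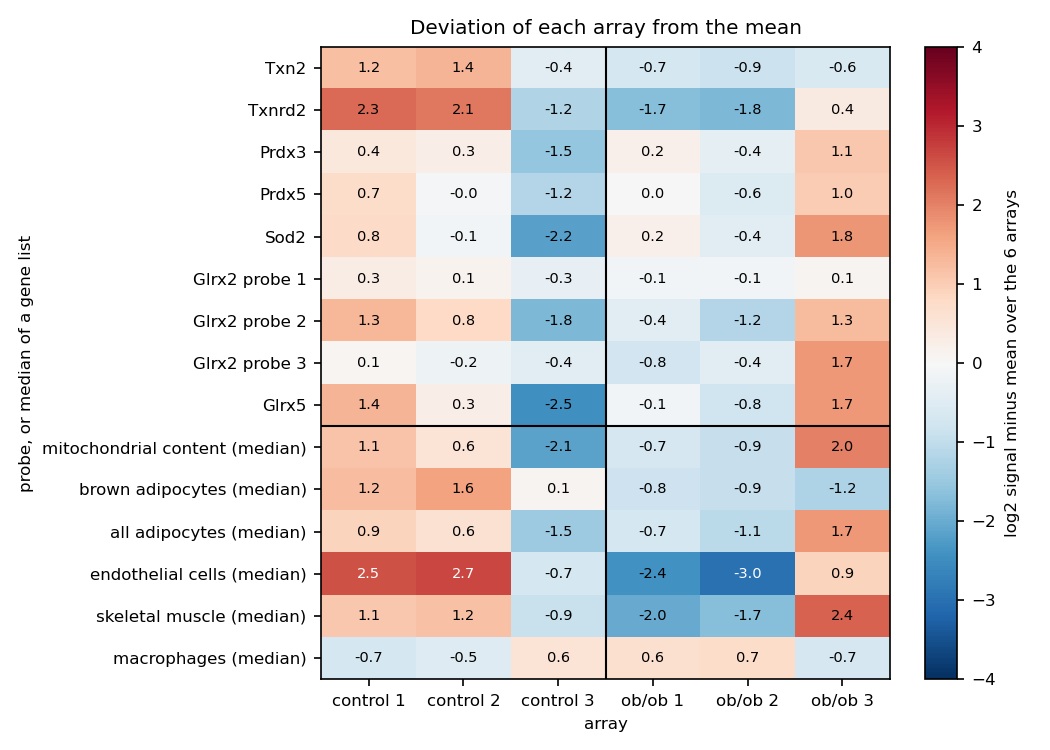
Deviation of each array (columns) from the mean of the 6 arrays in log2 units (color and printed value), for the 9 probes of the antioxidant genes (upper rows) and for the medians of 6 gene lists (lower rows). *Txn2* and *Txnrd2* are highest in control 1 and control 2, whereas *Prdx3*, *Prdx5*, *Sod2*, and *Glrx5* share with the mitochondrial content genes a low value in control 3 and a high value in *ob/ob* 3.

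Further genes of the pathway came from 3 lists. Of 12 genes for mitochondrial peroxide removal, glutathione, and repair, 1 was higher at an unadjusted p under 0.05, none was lower, and the median log2 fold change was −0.03. Among all genes tested, 2.04% were higher and 1.69% lower at that threshold. The gene was *Gsr*, glutathione reductase, which regenerates reduced glutathione in the cytosol and in mitochondria. *Gsr* was 8.40, 8.11, and 8.05 log2 units on the control arrays, against 9.05, 9.15, and 10.13 on the *ob/ob* arrays. Every *ob/ob* array lay above every control array, as for 3.74% of all probes tested. The controls, control 3 included, lay close together. For *Gsr* the difference was 1.26 log2 units (standard error 0.41, limma, unadjusted p = 0.0195, adjusted p = 1.0).

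In 2 further genes of this list the groups were separate with the *ob/ob* values lower, though neither had an unadjusted p under 0.05, and 4.19% of all probes tested were separate in that direction. These were *Slc25a39*, a carrier of glutathione into mitochondria, and its relative *Slc25a40*. *Slc25a40* was 7.16, 7.13, and 7.20 log2 units on the control arrays, against 5.29, 5.09, and 7.11 on the *ob/ob* arrays. Control 3 did not stand apart here, and *ob/ob* 3 lay just below the controls, with a log2 fold change of −1.33 (limma, unadjusted p = 0.0610).

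Of the 7 genes that supply NADPH in mitochondria, 6 were measured, and none had an unadjusted p under 0.05. *Idh2*, the mitochondrial NADP-dependent isocitrate dehydrogenase, was 11.81, 10.99, and 8.26 on the control arrays, against 11.57, 11.01, and 13.75 on the *ob/ob* arrays, so that the groups overlapped and control 3 and *ob/ob* 3 were again the extremes. The median log2 fold change of the list was 0.72, with 1 of 6 lower, where 57.2% of all genes tested were lower. All 14 genes of iron-sulfur cluster assembly, the process GLRX5 serves, were measured, and none had an unadjusted p under 0.05. Their median log2 fold change was 0.20, with 6 of 14 lower, beside the same 57.2% of all genes tested. The groups did not separate for any gene of these 2 lists.

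The gene starts of all 7 genes named on the array are in the RefSeq promoter table of build GRCm38.p6. The 250 bases before the start are shown for *Txn2* and *Txnrd2*, the pair that was highest in control 1 and control 2, and for *Prdx3* and *Sod2*, which followed the other pattern. Capitals mark the GC box (GGGCGG) and the CCAAT box (CCAAT), searched on both strands.
Txn2 (chr15:77928995-77929244, - strand): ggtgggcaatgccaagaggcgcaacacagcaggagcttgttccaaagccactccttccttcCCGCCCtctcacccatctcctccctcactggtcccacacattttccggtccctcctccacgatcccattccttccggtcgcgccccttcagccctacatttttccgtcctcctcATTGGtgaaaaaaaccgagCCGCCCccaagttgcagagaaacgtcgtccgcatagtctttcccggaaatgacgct
Txnrd2 (chr16:18426167-18426416, + strand): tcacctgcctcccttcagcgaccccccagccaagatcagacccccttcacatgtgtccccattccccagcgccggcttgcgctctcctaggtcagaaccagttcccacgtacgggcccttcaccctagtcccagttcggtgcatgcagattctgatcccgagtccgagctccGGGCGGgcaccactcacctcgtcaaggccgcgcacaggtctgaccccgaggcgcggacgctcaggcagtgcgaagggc
Prdx3 (chr19:60874539-60874788, - strand): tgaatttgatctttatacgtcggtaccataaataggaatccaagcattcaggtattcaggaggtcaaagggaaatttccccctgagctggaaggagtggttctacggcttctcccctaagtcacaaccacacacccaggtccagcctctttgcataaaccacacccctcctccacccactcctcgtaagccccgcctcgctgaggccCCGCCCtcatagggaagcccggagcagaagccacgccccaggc
Sod2 (chr17:13007589-13007838, + strand): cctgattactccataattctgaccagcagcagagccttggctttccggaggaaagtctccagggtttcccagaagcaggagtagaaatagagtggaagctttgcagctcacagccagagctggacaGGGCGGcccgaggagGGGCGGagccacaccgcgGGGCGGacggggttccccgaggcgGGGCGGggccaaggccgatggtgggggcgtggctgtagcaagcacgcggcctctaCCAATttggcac

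The *Txn2* window held 2 GC boxes, which begin 189 and 56 bases before the start, and 1 CCAAT box at 75 bases. *Txnrd2* held 1 GC box at 78 bases, *Prdx3* 1 at 43 bases, and *Sod2* 4 between 124 and 67 bases and a CCAAT box at 12 bases. A GC box was present in 32.7% and a CCAAT box in 33.8% of all 32851 promoter windows of the same length. The antioxidant response element (TGACNNNGC, in 10.2% of windows) and the half-site of estrogen-related receptors (AAGGTCA, in 4.08%) were not found in these 4 windows in either orientation. A match is a description of the letters, and the arrays do not measure binding.

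The directions of the thioredoxin pair and of the other genes differed in how far they depended on single arrays and settings. *Txn2* and *Txnrd2* were lower in *ob/ob* iBAT under each of the 19 alternatives run, with log2 fold changes from −2.07 to −1.08 and from −3.93 to −1.50. Control 1, control 3, and *ob/ob* 1 were read in the same scan, within which the differences were −1.08 and −2.24, from 1 *ob/ob* array and 2 control arrays. Scaling to the 75th percentile gave −1.38 and −1.93, beside a median of −0.32 over all probes. The sign of *Prdx3*, *Prdx5*, *Sod2*, *Glrx2*, and *Glrx5* turned under at least 1 alternative each.

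**Figure D5:**
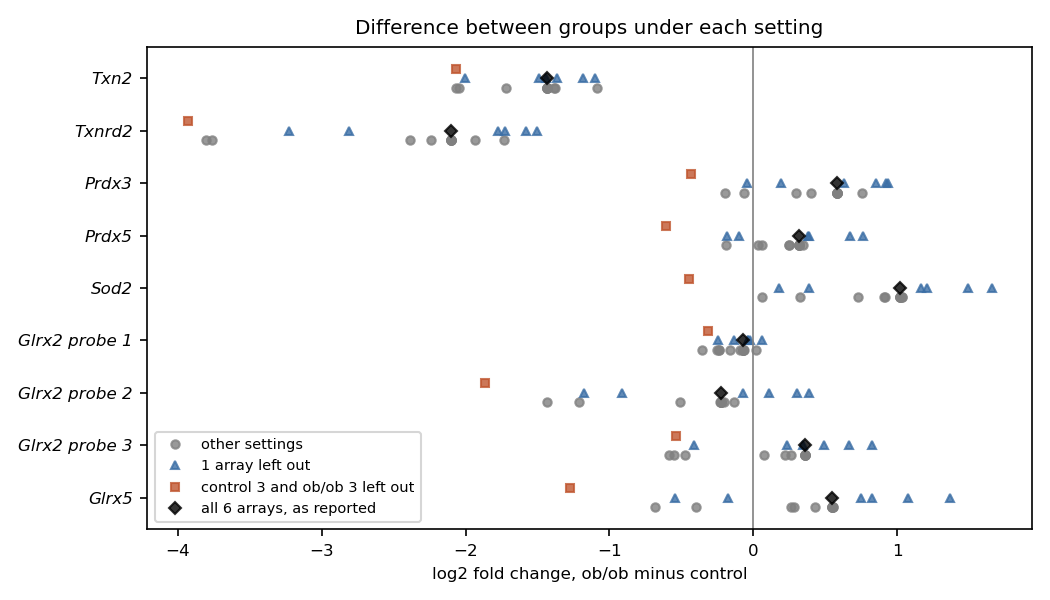
Log2 fold change of each probe, *ob/ob* minus control (horizontal axis), under every setting: all 6 arrays as reported (black), 1 array left out (blue), control 3 and *ob/ob* 3 both left out (orange), and other settings (grey). All points of *Txn2* and *Txnrd2* lie below 0, and the points of every other probe lie on both sides of it.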

How the data were processed

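RNA of iBAT from 3 control and 3 *ob/ob* mice was labeled with Cy3 and hybridized to 1 Agilent array per sample. The intensity of each spot was deposited as the authors' scanner software (Agilent Feature Extraction 11.0.1.1) gave it, background-corrected within the array and not normalized between arrays. The authors also deposited log2 values, quantile normalized with GeneSpring, which served as an alternative. Groups and replicate numbers came from the sample titles.

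Outlier spots were dropped, log2 signals were averaged over the spots of each probe, and 39325 of 39429 probes were quantile normalized. A probe was tested if at least 50% of its spots lay well above background on at least 3 of 6 arrays. On each array, 83.5% to 89.9% of spots lay well above background and none was saturated. The number of arrays limits the precision. Probes were named through RefSeq (GRCm38.p6), which matched 94.9% of those with a RefSeq accession, and for a gene in a list the brightest probe was used. limma (version 3.58.1, R 4.3.3) compared the groups, two-sided, with Benjamini-Hochberg adjustment over all 35448 probes. The code was tested on simulated data. Tables and figures were made with Python (3.11.15), pandas (2.3.3), numpy (2.4.6), scipy (1.17.1), and matplotlib (3.10.9).

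The members and lists were chosen with earlier results of these data known. The genes named are the members, genes of the related lists with an unadjusted p under 0.05, marker genes, and the 5 genes most like *Txn2*. *Idh2*, *Slc25a39*, *Slc25a40*, and the content genes were named beyond that rule, after their values were seen. The 19 alternatives were the 75th percentile, normexp background (offset 50), the authors' values, no detection filter, detection on all 6 arrays, the methods' t-test, limma with trend and robust estimation, array quality weights of 2 kinds, the replicate number and the scan as blocks, each array left out, control 3 and *ob/ob* 3 left out together, and values relative to mitochondrial content genes. The mean of a gene's probes was also tried, for *Glrx2*. The relative values were added after the data were seen.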

Additional observations from a re-analysis of the deposited data

How the results depend on the processing

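With 3 arrays a group, the number of arrays and the spread of control 3 and *ob/ob* 3 limit every value. No probe passed an adjusted p under 0.05 on all 6 arrays or with any 1 array left out (0 to 0), and limma with trend and robust estimation called 1, *Impg2*, which is no gene of this system. The methods' t-test called 0. Array quality weights called 33168 probes, although their estimation gave weights from 0.0178 to 1256, and gene by gene 17402. Leaving out control 3 and *ob/ob* 3 called 16259. Of the 9 probes of the antioxidant genes, these 3 settings called 7, 3, and 4. The cause was not tested.

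At an unadjusted p under 0.05, 1 of the 9 probes (*Txn2*) was lower. This count was 0 with scaling to the 75th percentile, the methods' t-test, trend and robust estimation, and the scan as a block, 6 and 3 with array quality weights by default and gene by gene, 4 without control 3 and *ob/ob* 3, and 0 to 2 leaving out 1 array. None was higher, except 1 (*Sod2*) with default array weights. With the replicate number as a block, the count lower was 0 and *Txn2* had an unadjusted limma p of 0.0853 (adjusted p 1.0). Arrays of the same number did not deviate together, with correlations of −0.85 to −0.66 of their deviations from the group means. With 3 arrays a group, and with control 3 and *ob/ob* 3 standing apart, these values cannot show whether the number pairs samples.

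The sign turned as follows. With default and gene by gene array weights, respectively, the log2 fold change was −0.061 and −0.20 for *Prdx3*, −0.40 and −0.68 for *Glrx5*, and −0.55 and −0.48 for the dimmest *Glrx2* probe, and with gene by gene weights it was −0.19 for *Prdx5*. The dimmest *Glrx2* probe was also at −0.58 with the scan as a block. Without both control 3 and *ob/ob* 3 it was −0.43 for *Prdx3*, −0.61 for *Prdx5*, −0.44 for *Sod2*, −1.27 for *Glrx5*, and −0.54 for the dimmest *Glrx2* probe. The brighter 2 *Glrx2* probes, already negative on all 6 arrays, were then at −0.31 and −1.86. The mean of the *Glrx2* probes gave 0.021, against −0.070 for the brightest. Leaving out 1 array gave −0.047 to 0.94 for *Prdx3*, −0.19 to 0.76 for *Prdx5*, −0.55 to 1.37 for *Glrx5*, 0.18 to 1.66 for *Sod2*, and −0.25 to 0.058, −1.18 to 0.39, and −0.41 to 0.82 for the *Glrx2* probes from brightest to dimmest.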
